A study of Drosophila melanogaster with 8 samples.

Results

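The Sox genes encode transcription factors that share a SOX-type HMG box, a DNA-binding domain that contacts the minor groove and bends the DNA. Sox proteins usually act with a partner factor bound close by, so the same Sox gene can have different targets in different tissues. The family is divided into lettered groups by sequence. In flies the group B genes are SoxN, D (Dichaete), Sox21a and Sox21b, and groups C to F have a single gene each, Sox14, Sox102F, Sox100B and Sox15. Fly Sox genes are best known for their parts in neurogenesis and segmentation (SoxN and D), in the embryonic hindgut (D), in the progenitor cells of the adult midgut (Sox21a), in the response to the hormone ecdysone at metamorphosis (Sox14), in the gonad (Sox100B) and in the socket cell of the mechanosensory bristle (Sox15). The 8 genes named here were matched to the deposited count table by symbol or older synonym, and all 8 were found among its 16845 gene identifiers. This matching used no measured value, but the family was chosen with earlier results of these data known.

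The measurements were poly-A RNA-seq counts from male pupal terminalia, the developing genital and anal structures, of Drosophila melanogaster with the genotype yw;+;+. There were 4 libraries from 28 hr after puparium formation (APF) and 4 from 24 hr APF, each made from a single pupa, and age was the only labelled difference between the groups. The study sequenced these stages because they come just before the adult terminal structures take shape, in order to find transcription factors active at that time. The tissue was washed out of the posterior of the pupa and was not sorted, so internal organs and attached cells could be present. In such bulk samples fewer cells of a type and less RNA per cell cannot be told apart.

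Library totals lay between 24534188 and 35795240 counts, and no pair of libraries from the same stage was a duplicate. The 8 genes of terminalia that were checked (Abd-B, Poxn, cad, dsx, opa, gsb, ems and Dr) all had means of at least 33 rpkm at both stages, where rpkm is the count scaled to exon length in kb and to the library total. Their summed level was 2683 to 2979 CPM (the count scaled by the library total) at 28 hr APF and 2430 to 2646 CPM at 24 hr APF. Markers of other tissues had lower sums. The 8 genes are from the study's atlas, whose genes were taken for high levels at 28 hr APF in these same data. Their high levels and the lower sums of other tissues therefore do not check the identity of the tissue. Muscle genes summed to 721.5 to 841.0 CPM at 28 hr APF and 768.7 to 1004 CPM at 24 hr APF, and glia genes to 505.8 to 549.4 CPM at 28 hr APF and 467.1 to 535.0 CPM at 24 hr APF. Most of the glia sum came from nrv2. Fat body genes summed to 26.9 to 61.9 CPM at 28 hr APF and 12.6 to 109.6 CPM at 24 hr APF, and hemocyte genes to 31.7 to 44.9 CPM at 28 hr APF and 26.6 to 63.0 CPM at 24 hr APF. The neuron sum (91.8 to 113.9 CPM at 28 hr APF, 69.9 to 85.1 CPM at 24 hr APF) and the trachea sum (416.5 to 454.8 CPM at 28 hr APF, 265.7 to 298.6 CPM at 24 hr APF) separated the stages, as did that of 3 bristle genes (153.7 to 175.4 CPM at 28 hr APF, 95.2 to 114.6 CPM at 24 hr APF). All 6 tested neuron markers, 2 of 3 trachea markers and 2 of 3 bristle markers rose in the edgeR test described below. Of 7 muscle markers 4 rose and 3 fell. That test called 32.9% of all tested genes. The trachea markers that rose were verm and serp. The other trachea marker, trh, was near 0 (0.115 rpkm at 28 hr APF, 0.131 rpkm at 24 hr APF) and was not called. The part of cells of these other tissues in the results below was not tested.

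Transcripts of the Sox genes spanned levels from 63.4 rpkm to almost none, and 5 of the 7 that could be tested changed between the stages. D, Sox102F and Sox21b were higher at 28 hr APF, SoxN and Sox100B were lower, no change was detected for Sox14 and Sox15, and Sox21a had too few counts to be tested across the table. A gene was called at an adjusted p below 0.05 in edgeR's quasi-likelihood test, with p-values adjusted over all 11232 tested genes. By this rule 32.9% of all tested genes were called, 15.6% as higher at 28 hr APF and 17.3% as lower. The same 5 Sox genes were those whose 28 hr APF libraries did not overlap the 24 hr APF libraries in rpkm, a separation seen in 34.5% of the tested genes with a known length. The median log2 fold change of all tested genes was 0.00 and the median absolute log2 fold change of those called was 0.37, so most called differences in these data were small. When the test asked for a change beyond 1.5-fold in place of any change, Sox100B alone among the 7 passed.

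**Figure D1:**
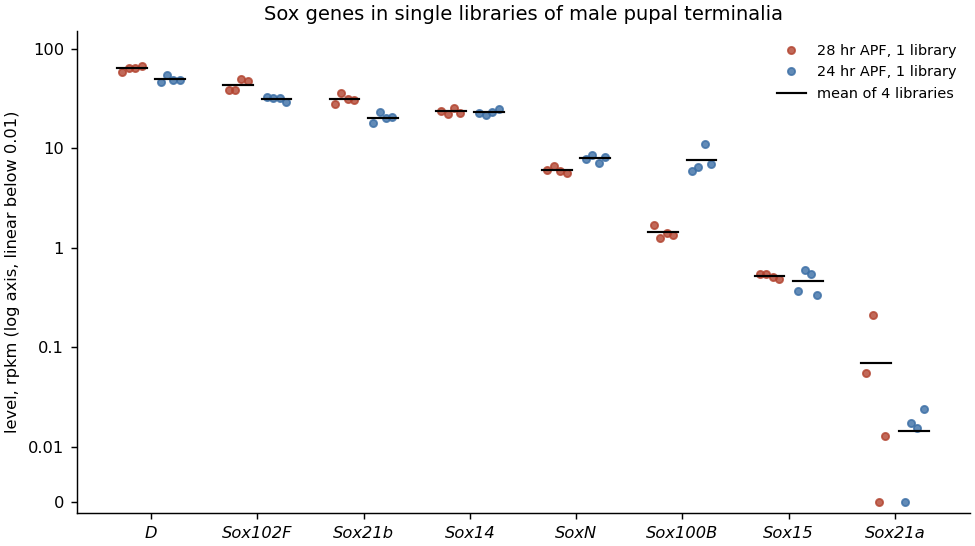
Level of each Sox gene in every library, in rpkm on a log axis that is linear below 0.01, with 28 hr APF to the left of 24 hr APF for each gene. Points are single libraries and black lines are means of 4 libraries. D is the highest gene at both stages (63.4 rpkm at 28 hr APF, 49.3 rpkm at 24 hr APF), and among the 7 tested genes Sox100B shows the largest gap between the stages.

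D was the most abundant Sox transcript at both stages. D is a group B gene needed for embryonic segmentation, for the nervous system and for the hindgut. In the terminalia at 28 hr APF the study saw D by in situ hybridization in the hypandrial phragma, a part of the hypandrium. D had 58.6, 64.4, 63.8 and 66.9 rpkm in the 28 hr APF libraries (replicates 1 to 4), against 46.2, 54.2, 48.2 and 48.6 rpkm in the 24 hr APF libraries. Every 28 hr APF library lay above every 24 hr APF library, although the gap between the closest libraries of the stages was smaller than the range within either stage. The means were 63.4 ± 3.48 rpkm at 28 hr APF and 49.3 ± 3.43 rpkm at 24 hr APF (SD, n = 4 each). The log2 fold change of 28 hr over 24 hr APF was 0.40 (SE 0.06, 95% interval 0.27 to 0.53), a 1.32-fold difference, with an edgeR adjusted p of 0.000525. At 28 hr APF 8.64% of the 16431 genes with a length had a mean level at or above that of D, and at 24 hr APF 11.7% did.

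Sox21b, the neighbour of D on the same chromosome arm, rose by a larger factor from a lower level. It had 28.1, 35.5, 31.2 and 30.6 rpkm at 28 hr APF, against 17.7, 23.3, 20.0 and 20.4 rpkm at 24 hr APF. The groups did not overlap, and replicate 2 was the highest and replicate 1 the lowest library at each stage. The labels do not say whether these numbers link libraries between the stages. Its mean was 31.3 ± 3.09 rpkm at 28 hr APF and 20.4 ± 2.27 rpkm at 24 hr APF (SD, n = 4 each). The log2 fold change was 0.66 (SE 0.09, 95% interval 0.46 to 0.85), or 1.58-fold, with an edgeR adjusted p of 0.000296. Leaving out each library in turn gave 0.59 to 0.72.

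Sox21a, which controls progenitor cells in the adult fly midgut, was nearly absent. It had 4, 14, 0 and 1 counts in the 28 hr APF libraries, 19 in all, against 0, 1, 1 and 2 counts in the 24 hr APF libraries, 4 in all. A floor of 3 counts per library equals 0.0359 to 0.0524 rpkm for this gene, and only replicates 1 and 2 of 28 hr APF exceeded it. Replicate 2 of 28 hr APF held most of the counts, at 0.211 rpkm. It fell below the minimum count for the test across genes, and the exact permutation test of its CPM over the 8 libraries gave a two-sided p of 0.4, where the smallest possible value is 0.0286. A difference between the stages was not detectable at this depth.

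SoxN (SoxNeuro) was the only tested group B gene that fell. It acts with D in the embryonic nervous system, and in the embryonic epidermis it works beside the ovo (shavenbaby) gene in making trichomes, the small cuticle hairs. SoxN had 5.99, 6.67, 5.97 and 5.68 rpkm at 28 hr APF, against 7.82, 8.53, 7.16 and 8.21 rpkm at 24 hr APF. All 4 libraries at 28 hr APF were below all 4 at 24 hr APF. The mean level was 6.08 ± 0.417 rpkm at 28 hr APF and 7.93 ± 0.591 rpkm at 24 hr APF (SD, n = 4 each). SoxN thereby fell by 0.35 on the log2 scale (SE 0.08, 95% interval -0.52 to -0.18), with an edgeR adjusted p of 0.00511.

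The balance among the group B genes therefore differed between the stages. The ratio of D to SoxN in rpkm was 9.78, 9.66, 10.7 and 11.8 in the 28 hr APF libraries, against 5.91, 6.35, 6.73 and 5.92 in the 24 hr APF libraries. The ratio of D to Sox21b was 2.09, 1.81, 2.05 and 2.18 at 28 hr APF, against 2.61, 2.33, 2.41 and 2.39 at 24 hr APF. Neither ratio overlapped between the stages, and relative to D there was less SoxN and more Sox21b at 28 hr APF. The separation of the D to SoxN ratio was already fixed by the non-overlapping, opposite shifts of these genes and adds nothing to them. These ratios were chosen after the values of the genes had been seen and are given without a test.

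**Figure D2:**
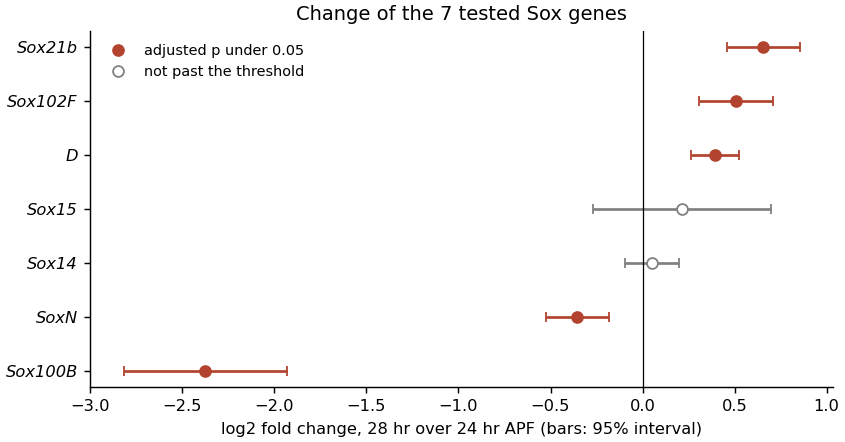
Log2 fold change of 28 hr over 24 hr APF for the 7 tested Sox genes, with bars for the 95% interval of the edgeR estimate (n = 4 libraries per stage). Sox21b, Sox102F and D lie to the right of 0, SoxN lies to the left, the intervals of Sox14 and Sox15 include 0, and Sox100B stands apart at -2.38.

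Sox100B showed the largest change among the 7 tested Sox genes. It is the fly group E gene, related to Sox9 of vertebrates, and is known from the developing testis and from the intestine. It had 1.71, 1.25, 1.42 and 1.34 rpkm in the 28 hr APF libraries, which rest on 110, 73, 87 and 93 counts. In the 24 hr APF libraries it had 5.87, 6.52, 11.1 and 6.97 rpkm, from 382, 328, 629 and 511 counts. The stages were well separated, and the 24 hr APF libraries also spread more, with replicate 3 above the rest. The means were 1.43 ± 0.198 rpkm at 28 hr APF and 7.61 ± 2.36 rpkm at 24 hr APF (SD, n = 4 each). Sox100B fell by 80.7% in the edgeR fit, a log2 fold change of -2.38 (SE 0.20, 95% interval -2.82 to -1.93) with an adjusted p of 1.56e-05. Only 35 of the 11232 tested genes, Sox100B among them, had a log2 fold change this low or lower, and 32 of these were called.

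The high 24 hr APF library of Sox100B was the highest of its stage for markers of some other tissues and not for others. Among the 24 hr APF libraries replicate 3 had the highest summed level of fat body genes (109.6 CPM) and hemocyte genes (63.0 CPM). The same held for muscle genes (1004 CPM) and neuron genes (85.1 CPM). Replicate 3 had the lowest sum for trachea genes (265.7 CPM) and gut genes (349.3 CPM). For terminalia, glia, gonad and bristle genes it was not the highest. Without this library the log2 fold change of Sox100B was -2.15, and the adjusted p in the 8 edgeR fits that each left out 1 library was at most 0.000141. Markers of the gonad, a known site of Sox100B expression, summed to 51.8 to 68.8 CPM at 28 hr APF and 55.5 to 87.4 CPM at 24 hr APF. Nearly all of this sum came from zfh1, with 6705 counts in all 28 hr APF libraries and 8824 counts in all 24 hr APF libraries. Among these markers the somatic gonad gene tj had 2 counts in all 28 hr APF libraries and 1 count in all 24 hr APF libraries. The gene zfh1, which many mesodermal cells also express, fell by 0.43 on the log2 scale (SE 0.14, edgeR adjusted p of 0.0362). The testis tubulin gene betaTub85D rose, with 287 counts in all 28 hr APF libraries and 59 counts in all 24 hr APF libraries (edgeR adjusted p of 0.0398), so of 4 tested gonad markers 1 rose and 1 fell. The betaTub85D libraries of the stages overlapped, at 0.0963 to 2.35 rpkm at 28 hr APF and 0.167 to 0.490 rpkm at 24 hr APF. Gut markers summed to 275.1 to 427.0 CPM at 28 hr APF and 349.3 to 382.4 CPM at 24 hr APF, nearly all of it from the myosin genes Myo31DF and Myo61F, of which Myo61F rose (18.2 ± 1.36 rpkm at 28 hr APF and 15.4 ± 0.488 rpkm at 24 hr APF, SD, n = 4 each, edgeR adjusted p of 0.00653). Myo31DF had 65.5 ± 13.8 rpkm at 28 hr APF and 69.6 ± 3.19 rpkm at 24 hr APF (SD, n = 4 each) and was not called. The enteroendocrine peptide genes of that list were close to 0, with 0 counts of Tk and 1 of NPF at 28 hr APF and 7 counts of Tk and 1 of NPF at 24 hr APF.

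Sox102F, the single group D gene of the fly, known for roles in neurons, was the second most abundant Sox transcript at both stages and rose. It had 38.4, 38.5, 49.6 and 47.9 rpkm at 28 hr APF, against 32.5, 32.0, 31.7 and 29.5 rpkm at 24 hr APF. The 24 hr APF libraries lay close together, and the 28 hr APF libraries formed a lower and a higher pair, both above 24 hr APF. The mean was 43.6 ± 5.99 rpkm at 28 hr APF and 31.4 ± 1.35 rpkm at 24 hr APF (SD, n = 4 each). Its log2 fold change was 0.51 (SE 0.09, 95% interval 0.31 to 0.71), or 1.42-fold, with an edgeR adjusted p of 0.00161. Leaving out single libraries gave 0.42 to 0.57. In the reference annotation 5.42% of the exon bases of Sox102F are shared with a transposable element, and reads from that element could enter its count.

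Sox14 was abundant and showed no detected change. It is the group C gene, induced by ecdysone, and is needed for the pruning of neurons at metamorphosis. Sox14 had 23.9, 22.3, 25.4 and 22.3 rpkm at 28 hr APF, against 22.8, 21.5, 23.3 and 24.9 rpkm at 24 hr APF. The stages overlapped over nearly their whole range, with means of 23.5 ± 1.46 rpkm at 28 hr APF and 23.1 ± 1.42 rpkm at 24 hr APF (SD, n = 4 each). The log2 fold change was 0.05 (SE 0.07), with an edgeR adjusted p of 0.595. The 95% interval, -0.09 to 0.20, bounds the change on either side and does not show that the levels were equal.

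Sox15, the group F gene, was expressed at a low level. It marks the socket cell of the bristle, where it acts with the Notch effector Su(H). It had 0.540, 0.549, 0.502 and 0.486 rpkm at 28 hr APF, against 0.371, 0.592, 0.544 and 0.337 rpkm at 24 hr APF. The 28 hr APF libraries fell inside the range of the 24 hr APF libraries, which had 43 to 55 counts each. The log2 fold change was 0.21 (SE 0.22, 95% interval -0.27 to 0.70), with an edgeR adjusted p of 0.497, and the interval includes a rise as large as that of D (0.40).

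Ordered by mean level at 28 hr APF, the genes ran D, Sox102F, Sox21b, Sox14, SoxN, Sox100B, Sox15 and Sox21a. No neighbours in this order overlapped over the 4 libraries. At 24 hr APF the order was the same except that Sox14 stood above Sox21b. There the ranges of Sox14 and Sox21b overlapped, as did those of SoxN and Sox100B, and each of these orders held in 3 of 4 libraries. The 24 hr APF levels of these neighbours therefore did not differ beyond their spread, whereas at 28 hr APF Sox21b was above Sox14 and SoxN was above Sox100B in every library.

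The summed level of the 8 genes was 169.9 ± 9.18 rpkm at 28 hr APF and 140.2 ± 5.56 rpkm at 24 hr APF (SD, n = 4 each). D supplied 37.3% of this sum at 28 hr APF and 35.1% at 24 hr APF, and Sox102F supplied 25.6% at 28 hr APF and 22.4% at 24 hr APF. The share of Sox21b was 18.4% at 28 hr APF against 14.5% at 24 hr APF. Sox14, SoxN and Sox100B took smaller shares of a sum that was itself larger at 28 hr APF. Sox14 took 13.8% of the sum at 28 hr APF and 16.5% at 24 hr APF, SoxN took 3.59% at 28 hr APF and 5.66% at 24 hr APF, and Sox100B took 0.847% at 28 hr APF and 5.42% at 24 hr APF. Sox15 and Sox21a together stayed below 1% of the sum at both stages.

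**Figure D3:**
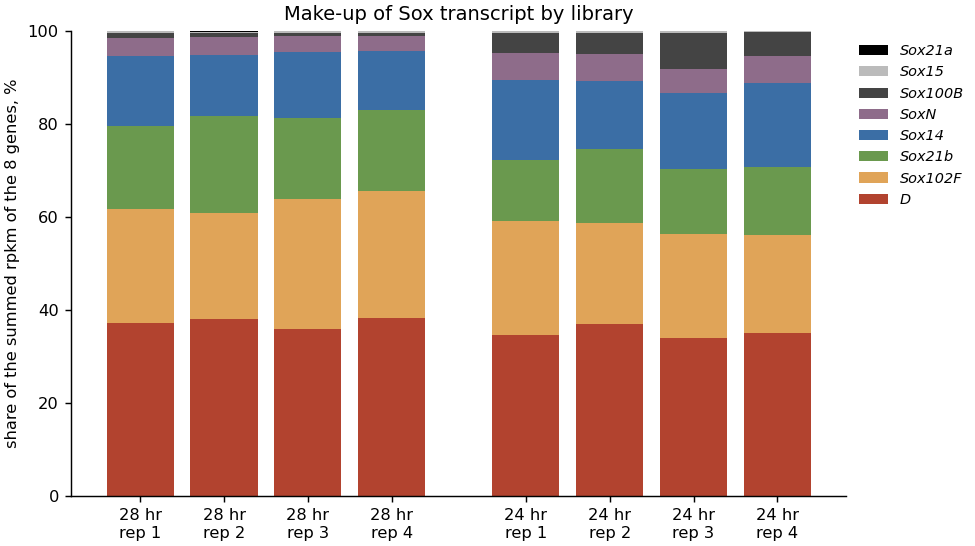
Share of each Sox gene in the summed rpkm of the 8 genes, in percent, 1 bar per library, with the 28 hr APF libraries left of the 24 hr APF libraries. D takes the largest share in every library, and the band of Sox100B is 0.847% on average at 28 hr APF and 5.42% at 24 hr APF.

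Of the 8 genes, 3 are neighbours. Coordinates here are those of the BDGP6 annotation and not of the dm3 assembly used for the alignment. Sox21a (chr3L:14103481-14108118), Sox21b (chr3L:14112405-14131324) and D (chr3L:14175610-14178620) lie on the minus strand within 75.14 kb, with gaps of 4286 bp between Sox21a and Sox21b and 44285 bp between Sox21b and D, and no other protein-coding gene lies between them. The levels inside this cluster differed widely at both stages. Sox21a was close to 0 beside Sox21b at 31.3 rpkm at 28 hr APF and 20.4 rpkm at 24 hr APF, and beside D at 63.4 rpkm at 28 hr APF and 49.3 rpkm at 24 hr APF.

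The genes that flank the cluster were also low. Fbp1, a fat body gene next to Sox21a, had 0.962 ± 0.457 rpkm at 28 hr APF and 0.770 ± 0.805 rpkm at 24 hr APF (SD, n = 4 each), with an edgeR adjusted p of 0.703. The ion channel gene nan (nanchung), next to D, had 11 counts in all at 28 hr APF and 20 counts at 24 hr APF. The wide interval of Fbp1 (log2 fold change 0.37, SE 0.64) includes a rise of the size seen for D and Sox21b, and nan was too low to test.

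**Figure D4:**
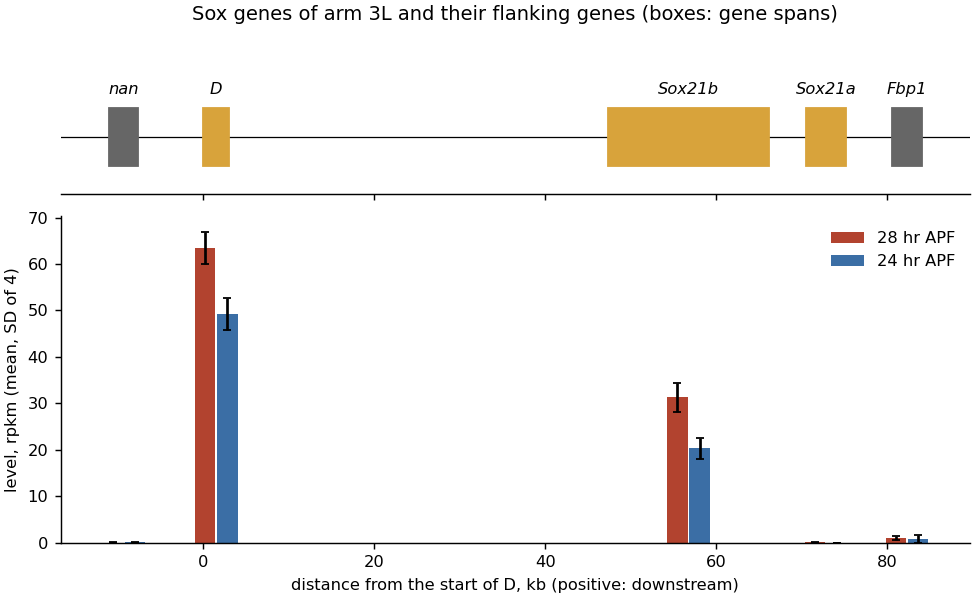
Upper panel, gene spans of Sox21a, Sox21b, D and the flanking genes along the chromosome arm, as distance from the start of D in kb. Lower panel, mean level of each gene in rpkm with SD over 4 libraries, at 28 hr APF left of 24 hr APF. D and Sox21b are high and rose, and Sox21a, Fbp1 and nan stay below 1 rpkm on average at both stages.

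The remaining members lie apart. Sox14 (chr2R:23978801-23985177, plus strand) and Sox15 (chr2R:14201390-14212413, minus strand) share an arm but not a neighbourhood. Sox100B is at chr3R:31065253-31083407 (plus strand), Sox102F at chr4:800436-834393 (minus strand) and SoxN at chr2L:8825645-8829670 (plus strand). SoxN is annotated with a single exon, and the exons of the 8 genes join to between 2049 bp (Sox100B) and 4336 bp (Sox102F). Among the protein-coding genes nearest to these 5 members, PPP1R15 and CG30178 (Sox14), RpS23 (Sox15), dco (Sox100B) and MED26 (Sox102F) were tested. None of these 5, nor Fbp1, was called by edgeR, at an unadjusted p below 0.05 or by DESeq2. The edgeR test called 32.9% of all tested genes. VGAT (Sox15), CG11317 (Sox100B), fd102C (Sox102F) and both neighbours of SoxN, CG42710 and CG32986, had too few counts to be tested. CG11317 had 3 counts in all 28 hr APF libraries and 15 counts in all 24 hr APF libraries. The kinase gene dco, beside Sox100B, had 38.9 ± 1.35 rpkm at 28 hr APF and 40.4 ± 1.09 rpkm at 24 hr APF (SD, n = 4 each). Its log2 fold change was -0.02 (SE 0.04, edgeR adjusted p of 0.721), beside -2.38 for Sox100B.

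For each called member the nearest genes in expression pattern were found as those with the smallest root mean square difference of centred log2 CPM over the 8 libraries, among 7649 genes. The measure uses the stage difference and the spread within stages together and says nothing of function. The closest to D were CG15822 (0.048 log2 units), CG34247 (0.051) and a gene with no symbol in the annotation used here, FBgn0036660 (0.053). The closest to Sox102F was Awh, a LIM-homeodomain gene (0.054), followed by CG7220 (0.066) and CG13300 (0.067). Awh had 22.1 ± 3.22 rpkm at 28 hr APF and 16.1 ± 0.879 rpkm at 24 hr APF (SD, n = 4 each). The larger spread at 28 hr APF, as for Sox102F, is a likeness that the choice by pattern favours.

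SoxN was nearest to Acf, a chromatin assembly factor gene (0.058), Gbs-76A (0.060) and U3-55K (0.062). For Sox21b the nearest were the receptor kinase gene Tie (0.090), the serpin gene Spn42Dd (0.092) and CG14984 (0.093). Sox100B had no match as close. The distance is not scaled to the size of a change, and Sox100B had the largest change of the called members. Its nearest genes were CG4702 (0.29), the nuclear receptor gene ftz-f1 (0.29) and the homeodomain gene otp (0.31), all farther than the nearest genes of the other called members. The level of otp was 3.98 ± 1.14 rpkm at 28 hr APF and 15.8 ± 4.43 rpkm at 24 hr APF (SD, n = 4 each), a difference that the choice by pattern already fixes.

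The other genes with an HMG box mostly fell or showed no detected change. These include chromatin proteins (HmgD, HmgZ, the FACT subunit Ssrp and the Brahma complex subunit Bap111), the mitochondrial TFAM and the transcription factors pan, cic and bbx. Of 8 tested, 1 rose and 5 fell (over all tested genes 15.6% rose and 17.3% fell), with a median log2 fold change of -0.25. HmgD, the most abundant, had 373 ± 30.4 rpkm at 28 hr APF and 538 ± 30.4 rpkm at 24 hr APF (SD, n = 4 each), and fell by 0.50 on the log2 scale (SE 0.05, edgeR adjusted p of 6.72e-05). Ssrp had 61.5 ± 5.92 rpkm at 28 hr APF and 94.9 ± 2.58 rpkm at 24 hr APF (SD, n = 4 each), and fell by 0.60 (SE 0.06, edgeR adjusted p of 4.67e-05). The gene that rose was pan, the fly TCF factor of the Wingless pathway, with 17.3 ± 1.44 rpkm at 28 hr APF and 15.3 ± 0.836 rpkm at 24 hr APF (SD, n = 4 each), for a log2 fold change of 0.21 (SE 0.06, edgeR adjusted p of 0.0156). The testis genes tHMG1 and tHMG2 had 11 and 28 counts at 28 hr APF and 4 and 1 counts at 24 hr APF and fell below the filter. In the fits without that filter tHMG2 was called as higher at 28 hr APF (adjusted p of 0.0239 in edgeR and 0.0122 in DESeq2), and tHMG1 was not. The tHMG2 libraries of the stages overlapped, at 0.0452 to 0.917 rpkm at 28 hr APF and at most 0.0623 rpkm at 24 hr APF.

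Of 8 tested partners and co-regulators described for fly Sox proteins, 2 were called, beside 32.9% of all tested genes. Of these 2, pan rose as given above and the corepressor gene gro fell. The median log2 fold change of the 8 was -0.01. The call of pan was lost when replicate 2 of 24 hr APF was left out (log2 fold change 0.19). The gene gro had 40.3 ± 1.37 rpkm at 28 hr APF and 46.5 ± 0.447 rpkm at 24 hr APF (SD, n = 4 each), and fell by 0.18 on the log2 scale (SE 0.03, edgeR adjusted p of 0.00288). The most abundant was arm (beta-catenin), with 523 ± 18.2 rpkm at 28 hr APF and 518 ± 11.5 rpkm at 24 hr APF (SD, n = 4 each, edgeR adjusted p of 0.395). The POU-domain genes vvl and nub were present at 6.42 ± 1.52 and 6.93 ± 0.273 rpkm at 28 hr APF and at 5.56 ± 0.494 and 6.84 ± 0.755 rpkm at 24 hr APF (SD, n = 4 each). The neural patterning genes vnd and ind, which overlap SoxN and D in the embryonic nervous system, were below 1 rpkm at both stages, and ind had 1 count in all at each stage.

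Trichome genes, which ovo and SoxN control in the embryo, were changed in both directions. Of 11 tested, 5 rose and 3 fell (over all tested genes 15.6% rose and 17.3% fell), with a median log2 fold change of 0.04. The gene ovo itself had 17.1 ± 1.5 rpkm at 28 hr APF and 18.3 ± 2.82 rpkm at 24 hr APF (SD, n = 4 each, edgeR adjusted p of 0.661). The hair-forming gene sha had 4.72 ± 0.331 rpkm at 28 hr APF and 1.85 ± 0.267 rpkm at 24 hr APF (SD, n = 4 each), for a log2 fold change of 1.39 (SE 0.11, edgeR adjusted p of 8.95e-06). Of the genes for ZP-domain proteins of the apical matrix, mey rose, with 283 ± 11.6 rpkm at 28 hr APF and 145 ± 16.0 rpkm at 24 hr APF (SD, n = 4 each), as did neo, the most abundant of the list, with 603 ± 47.5 rpkm at 28 hr APF and 418 ± 25.7 rpkm at 24 hr APF (SD, n = 4 each). The ZP-domain genes zye and dyl fell, by 1.3 (SE 0.33, edgeR adjusted p of 0.0117) and 1.11 (SE 0.10, edgeR adjusted p of 3.21e-05) on the log2 scale, although zye was at most 0.293 rpkm in any library.

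In the bristle lineage, where Sox15 marks the socket cell, 5 of 13 tested genes rose and 2 fell. Over all tested genes 15.6% rose and 17.3% fell. The median log2 fold change of the 13 was 0.18. The cap protein gene nompA had 15.0 ± 1.13 rpkm at 28 hr APF and 7.31 ± 1.23 rpkm at 24 hr APF (SD, n = 4 each), for a log2 fold change of 1.08 (SE 0.11, edgeR adjusted p of 5.16e-05). The homeodomain gene pros rose by 0.44, and numb, a Notch inhibitor, was the most abundant of the list, at 99.6 ± 1.64 rpkm at 28 hr APF and 83.1 ± 2.16 rpkm at 24 hr APF (SD, n = 4 each). The 2 genes that fell were sens and ase, which act in the bristle precursor, while other genes of that cell (ac, sc and neur) were not called. The zinc finger gene sens had 1.0 ± 0.580 rpkm at 28 hr APF and 5.76 ± 1.75 rpkm at 24 hr APF (SD, n = 4 each), with a log2 fold change of -2.50 (SE 0.37, edgeR adjusted p of 0.000572), and ase had a log2 fold change of -1.18. Su(H), the partner of Sox15 in the socket cell, had 20.2 ± 1.08 rpkm at 28 hr APF and 15.3 ± 0.928 rpkm at 24 hr APF (SD, n = 4 each, edgeR adjusted p of 0.000347).

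**Figure D5:**
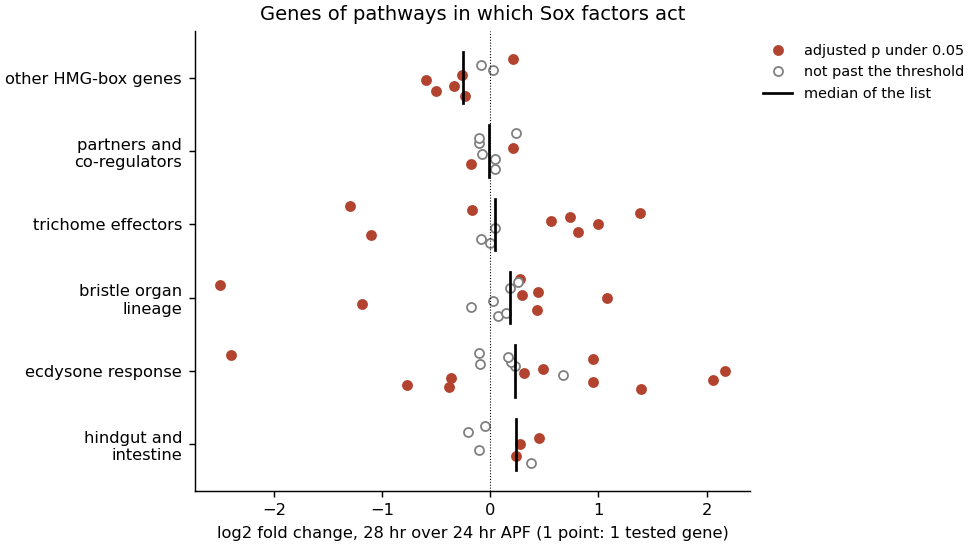
Log2 fold change of 28 hr over 24 hr APF for every tested gene of the 6 lists, 1 point per gene, with 1 row per list and a mark at the list's median. The medians run between -0.25 for the other HMG-box genes and 0.24 for the hindgut and intestinal regulators, and single genes reach 2.17 (Hr4) and -2.50 (sens).

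Ecdysone response genes changed in both directions, beside a Sox14 level that showed no detected change. Of 17 tested, 7 rose and 4 fell (over all tested genes 15.6% rose and 17.3% fell), with a median log2 fold change of 0.23. The nuclear receptor gene Hr4 had 4.95 ± 0.777 rpkm at 28 hr APF and 1.13 ± 0.115 rpkm at 24 hr APF (SD, n = 4 each), with a log2 fold change of 2.17 (SE 0.11, edgeR adjusted p of 1.70e-06), and Eip78C, another nuclear receptor gene, had 2.06. The nuclear receptor gene ftz-f1 had 0.541 ± 0.0436 rpkm at 28 hr APF and 2.90 ± 0.308 rpkm at 24 hr APF (SD, n = 4 each), for a log2 fold change of -2.39 (SE 0.10, edgeR adjusted p of 7.39e-07). The ETS factor gene Eip74EF fell by 0.77 on the log2 scale. Mical, an actin-regulating enzyme gene that Sox14 activates in pruning neurons, had 10.9 ± 0.445 rpkm at 28 hr APF and 9.99 ± 1.23 rpkm at 24 hr APF (SD, n = 4 each), and did not pass (edgeR adjusted p of 0.133). ImpE2 had the highest level of the list, 6328 ± 699.6 rpkm at 28 hr APF and 5514 ± 340.1 rpkm at 24 hr APF (SD, n = 4 each, edgeR adjusted p of 0.0682).

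Regulators of the hindgut and intestine, where D, Sox21a and Sox100B act, rose or showed no detected change. Of 7 tested, 3 rose (drm, cad and bowl) and none fell in edgeR's test, where 15.6% of all tested genes rose and 17.3% fell. The median log2 fold change of the 7 was 0.24. At an unadjusted p below 0.05 and in DESeq2 the count that fell was also 0. The study found bowl in several tissues of the terminalia as well. The gene drm, which with bowl and lin patterns the hindgut, had 266 ± 38.8 rpkm at 28 hr APF and 199 ± 13 rpkm at 24 hr APF (SD, n = 4 each), for a log2 fold change of 0.45 (SE 0.09, edgeR adjusted p of 0.00301). The homeodomain gene cad, which is also expressed in the anal structures, had 113 ± 6.82 rpkm at 28 hr APF and 96.2 ± 11.4 rpkm at 24 hr APF (SD, n = 4 each), with a log2 fold change of 0.27 (SE 0.08, edgeR adjusted p of 0.0308). This call was lost without replicate 3 (0.20) or 4 (0.25) of 24 hr APF and without replicate 3 (0.21) or 4 (0.27) of 28 hr APF. GATAe, a marker of the midgut, had 0.199 ± 0.0540 rpkm at 28 hr APF and 0.157 ± 0.0668 rpkm at 24 hr APF (SD, n = 4 each), and hkb and tll had at most 28 counts over the 4 libraries of a stage.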

How the data were processed

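The authors aligned 51-base reads from 3 lanes of poly-A RNA-seq libraries to the dm3 assembly with tophat (TopHat2 2.0.13 in the submitters' processing notes) and counted reads in the unioned exons of FlyBase 5.57 genes with bedtools. They deposited 1 table of raw read counts per gene and library, without normalization. How strand, overlapping genes and lanes were handled is not given in the sources used here, so reads from a gene and an antisense neighbour cannot be told apart.

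From these counts, rpkm was computed here with exon lengths of Ensembl 115 (BDGP6), matched by FlyBase identifier. Of the identifiers 16431 had a length, and the other 414 took 8.07 to 8.44% of the counts of a library. No coordinates were converted between assemblies, and no nucleotide or protein sequence was used here. The stages were compared in edgeR 4.0.16 (R 4.3.3) by TMM scaling (factors 0.964 to 1.03), filterByExpr with a minimum count of 10, the quasi-likelihood test and Benjamini-Hochberg adjustment over 11232 genes, threshold 0.05. Standard errors were derived from the F statistic of this test. Counts of Sox21a were read against a floor of 3 counts, which covers counting error only. On simulated counts for this comparison, in which 196 of 11134 genes differed by 1 on the log2 scale, 80.1% of the changed genes were recovered with 10 false calls. In the data a larger share of genes was called (32.9%), with a smaller median absolute log2 fold change (0.37). The simulated rates therefore do not give the recovery or the false calls for changes of that size.

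Each library is a different pupa. Libraries of a stage were compared for duplicates by a chi-square test per degree of freedom (at least 7.42). The 8 members and all gene lists were chosen with earlier results of these data known. Named genes are all members, the 3 genes nearest in pattern to each called member (log2 CPM, prior count 2, mean log2 CPM of at least 3), the nearest protein-coding genes, and from each list the 2 largest called increases and decreases and the most abundant gene. Other genes named from the lists (vvl, nub, vnd, ind, ovo, Su(H), ac, sc, neur, bowl, betaTub85D, Myo31DF, Myo61F, GATAe, hkb, tll, tj, zfh1, Tk, NPF, tHMG1, tHMG2 and Mical) were chosen after their values were seen. The listed genes Dsp1, tyn, esg, para, btl and vas were not found among the counted genes by their current FlyBase identifiers and were not analysed here. The hindgut list therefore lacks esg, which the study found expressed in the terminalia. Alternatives covered normalization, the filter, DESeq2 1.42.0, a minimum fold change, a block for the replicate number, gene length, library size and leaving out each library. Tables were made with pandas 2.3.3 in Python 3.11.15.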

Additional observations from a re-analysis of the deposited data

Results flagged for a closer look

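Of 110 groups of 4 libraries examined, 5 held a library whose gap to the rest took up most of the range by Dixon's criterion, close to the 1 in 20 that chance gives, and none of the 5 was a Sox gene. The corepressor gene gro had 45.9 rpkm in replicate 2 of 24 hr APF, below 46.7 to 46.8 rpkm in the other libraries of that stage. The hindgut regulator gene drm had 209 rpkm in replicate 3 of 28 hr APF, below 281 to 293 rpkm in the others. Acf, the gene nearest to SoxN in pattern, had 19.1 rpkm in replicate 2 of 28 hr APF, above 16.4 to 16.6 rpkm in the others. Tie, the nearest to Sox21b, had 2.80 rpkm in replicate 2 of 24 hr APF, above 2.19 rpkm in each of the others. In these same libraries SoxN (6.67 rpkm) and Sox21b (23.3 rpkm) were also highest for the stage. Acf and Tie were chosen for their likeness to SoxN and Sox21b over the libraries, so their flags are not independent of that choice. The gonad and germ line markers, whose sum came mostly from zfh1, summed to 55.5 CPM in replicate 4 of 24 hr APF, below 84.3 to 87.4 CPM in the others. Sox100B in that library was at 6.97 rpkm, inside the range of its stage.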

How the results depend on the processing

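The 5 called Sox genes kept their direction and stayed past the threshold under RLE and upper-quartile scaling, without the filter, in DESeq2 and in all 8 fits that left out 1 library, where D ranged over 0.37 to 0.44, Sox21b over 0.59 to 0.72, Sox102F over 0.42 to 0.57, SoxN over -0.41 to -0.32 and Sox100B over -2.48 to -2.15 (log2 fold change). Sox14, which was not called, ranged over -0.0064 to 0.10 and turned negative without replicate 3 of 28 hr APF. All called genes numbered 3121 to 3435 in these fits and 3998 in DESeq2, and called partners numbered 1 to 2. Tested against a fold change of 1.5, 531 genes and 1 Sox gene passed. SoxN (-0.35), D (0.40), Sox102F (0.51) and Sox21b (0.66) did not, and the counts in the lists were 0 for other HMG-box genes, 0 for partners, 3 for trichome genes, 3 for bristle genes, 7 for ecdysone genes and 0 for hindgut genes. This test asks for larger changes by construction. With the longest transcript as length, Sox102F had 49.7 rpkm at 28 hr APF and 35.8 rpkm at 24 hr APF. The ratio of D to Sox21b, whose alternatives were chosen after seeing the data, differed by -0.40 between the stages and by -0.34 without replicate 1 of 24 hr APF.

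Over all genes same-numbered libraries did not deviate together (correlations of -0.16, 0.16, -0.22 and 0.14). Such correlations cannot exclude that same-numbered libraries were prepared together. For Sox21b the SE was 0.043 with the replicate number as a block, against 0.089 without it. With the number as a block 3175 genes and the same count of 5 Sox genes were called, and the call of cad was lost (log2 fold change 0.28). Depth limits Sox21a, and Sox15 at 43 to 62 counts per library.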
